A study of Mus musculus with 12 samples.

Results

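The genes described here are 7 acute-phase genes, Saa1, Saa2, Saa3, Lcn2, Hp, Slpi and Ptx3, taken by symbol from the 48526 genes of a table of read counts from mouse bone marrow-derived macrophages (BMDMs). They were chosen by measured values, because earlier results from these counts had Saa3 among the genes most raised over untreated cells in both sets of Wnt3a-treated libraries, and the other 6 were added as relatives of the same response. Their levels in those libraries relative to untreated cells are therefore given as a description, without a test. The 12 samples came from 3 female C57Bl/6J mice, and the cells of each mouse went into 4 groups of 1 sample per mouse: untreated, 100 ng/mL Wnt3a, 100 pg/mL IL4, or Wnt3a and IL4 together at those doses, all for 16 hours. All groups were grown from whole bone marrow with 10 ng/mL mCSF until culture day 7, so every value belongs to cultured macrophages under mCSF and not to a tissue.

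For each mouse, the column labeled Wnt3a and the column labeled Wnt3a and IL4 share reads. Within a mouse, no gene of the 48526 had a Wnt3a count below the combined count or above 2 times it, whereas pairing columns across mice put 6681 to 8625 genes outside those bounds. The 2 columns of a mouse were therefore taken apart into the difference (the Wnt3a column minus the combined column) and the remainder (the combined column minus the difference), which share no reads. Both come from cells that received Wnt3a, but the labels do not settle which of them is Wnt3a alone and which is Wnt3a with IL4. The IL4 marker Retnla, a secreted protein of alternatively activated macrophages, stood at 41.8 ± 6.73 CPM (SD, n = 3 mice) in IL4, at 0.0191 CPM in the difference and at 0.0207 CPM in the remainder. Arg1 (arginase), the other IL4 marker, stood at 1.53 ± 0.147 CPM in IL4, 0.0203 CPM in the difference and 12.8 ± 10.6 CPM in the remainder, while the Wnt target Axin2 reached 0.160 ± 0.176 CPM in the difference and 0.696 ± 0.151 CPM in the remainder. The 2 IL4 markers thus differed in the remainder, and the first assignment used below (difference as Wnt3a, remainder as Wnt3a with IL4) stands beside the other assignment wherever it matters. CPM are counts relative to library size with TMM scaling. Each library or part held 13342492 to 17453377 counts, so that 3 counts, the limit that a count of 0 allows for counting error only, equal 0.172 to 0.225 CPM.

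Acute-phase proteins are secreted when infection or injury is sensed, mostly by hepatocytes but also by macrophages, neutrophils and epithelia. Serum amyloid A proteins are apolipoproteins of high-density lipoprotein; in mice Saa1 and Saa2 are the circulating forms made by liver, while Saa3 is made in macrophages and adipose tissue. Lcn2 (lipocalin-2) withholds iron from bacteria by binding their siderophores, Hp (haptoglobin) binds free hemoglobin, Slpi inhibits neutrophil serine proteases and Ptx3 is a long pentraxin that opsonizes microbes. Such genes are classically induced by IL-1, TNF and IL-6 through NF-κB, C/EBP and STAT3. Wnt3a acts through Frizzled and LRP receptors to stabilize β-catenin, and IL-4 acts through STAT6.

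On mm10, the 3 serum amyloid genes lie within 42.3 kb of chromosome 7. Saa3 (ENSMUSG00000040026) is at chr7:46711998-46715700 on the minus strand, Saa1 (ENSMUSG00000074115) at chr7:46740497-46742980 on the minus strand and Saa2 (ENSMUSG00000057465) at chr7:46751790-46754313 on the plus strand. Lcn2 (ENSMUSG00000026822, chr2:32384633-32388252) and Slpi (ENSMUSG00000017002, chr2:164354070-164389095) are on the minus strand of chromosome 2, Hp (ENSMUSG00000031722, chr8:109575128-109579172) is on the minus strand of chromosome 8 and Ptx3 (ENSMUSG00000027832, chr3:66219910-66225805) on the plus strand of chromosome 3. All 7 are protein-coding genes, and the counts are of reads in their exons. Of the 50-base stretches in their annotated transcripts, 31.5% in Saa1 and 29.97% in Saa2 also occur in another gene, mostly in each other, so reads there cannot be assigned to 1 of the pair and these 2 counts are uncertain. For Saa3 the share was 4.15%, and for Lcn2, Hp, Slpi and Ptx3 no stretch was shared. No exon base of the 7 genes overlapped an exon on the opposite strand, which matters because the strand setting of the counting is not given.

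Sequence upstream of the transcription start was available from RefSeq (GRCm38.p6) for 6 of the 7 genes, all but Hp. Bases -250 to -51 are shown for Saa3 and Slpi, which were measured at high and moderate levels, and for Saa1 and Saa2, the neighbors of Saa3 that were not detected. The RefSeq starts of Slpi and Lcn2 lie inside the longer gene spans given above, which include transcripts that begin farther upstream. All read 5′ to 3′ on the strand of the gene, and capitals mark matches to the C/EBP-type motif TTNNGNAA on either strand.
Saa3 (chr7:46715727-46715926, minus strand): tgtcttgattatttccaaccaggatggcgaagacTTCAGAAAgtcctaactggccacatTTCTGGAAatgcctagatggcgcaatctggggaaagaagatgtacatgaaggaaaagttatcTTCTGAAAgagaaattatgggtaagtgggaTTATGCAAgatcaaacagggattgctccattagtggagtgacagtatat
Slpi (chr2:164356558-164356757, minus strand): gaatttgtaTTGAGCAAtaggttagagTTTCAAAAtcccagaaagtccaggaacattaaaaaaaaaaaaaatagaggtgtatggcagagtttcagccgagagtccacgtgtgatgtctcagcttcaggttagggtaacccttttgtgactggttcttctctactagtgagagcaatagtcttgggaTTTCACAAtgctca
Saa1 (chr7:46743031-46743230, minus strand): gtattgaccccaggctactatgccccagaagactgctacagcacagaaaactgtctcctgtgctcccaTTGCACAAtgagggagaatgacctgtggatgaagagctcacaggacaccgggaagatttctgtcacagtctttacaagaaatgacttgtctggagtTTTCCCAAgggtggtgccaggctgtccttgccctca
Saa2 (chr7:46751583-46751782, plus strand): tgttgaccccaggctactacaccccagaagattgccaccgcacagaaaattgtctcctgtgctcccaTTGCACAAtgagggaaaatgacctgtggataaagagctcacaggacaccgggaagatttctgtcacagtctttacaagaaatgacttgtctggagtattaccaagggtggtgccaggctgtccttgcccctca

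The Saa3 window held 4 matches, which began at -216, -191, -129 and -99, and the Slpi window held 3, at -241, -223 and -64. Saa1 had 2 matches (-182 and -86) and Saa2 had 1 (-183), with the same letters, TTGCACAA, at Saa1 -182 and Saa2 -183. Lcn2 and Ptx3, whose windows are not shown, held 1 match each, at -216 and -57. Among the 250-base upstream windows of 32851 RefSeq promoters, 36.8% held at least 1 match, 2.61% at least 3 and 0.591% at least 4. Searches of the same windows, also on both strands, found 1 match to the NF-κB core GGNNTTNCC (in 13.5% of all windows), GGAAATGCC at -187 in Saa3, which overlapped the marked match at -191. The 6 genes held no match to a STAT motif (TTCNNNGAA, in 7.02% of all windows), a TCF/LEF motif (CTTTGA, 13.8%), an AP-1 motif (TGANTCA, 6.75%) or a TATA box (TATAAA, 12.4%). The upstream windows of Saa1 and Saa2 were 94.8% identical over their alignment, against 52.2% for Saa1 and Saa3 and 52.4% for Saa2 and Saa3. A match is a string of letters and was not tested as a binding site.

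Saa3 was the most abundant of the 7 genes in both sets of Wnt3a-treated libraries. Its counts in mice 1, 2 and 3 were 217, 181 and 138 in untreated cells, 83, 144 and 184 in IL4, 40374, 64400 and 52627 in the difference, and 16069, 24008 and 12991 in the remainder. In CPM these were 11.7, 11.6 and 8.65 in untreated cells, 4.97, 9.20 and 13.3 in IL4, 2309, 3929 and 3823 in the difference, and 997, 1474 and 853 in the remainder. All 6 Wnt3a-treated values lay above all 6 others, the difference lay above the remainder in every mouse, and untreated and IL4 overlapped. The level in the difference was 198, 338 and 442 times the untreated level of the same mouse, with a fitted log2 fold change of 8.30 ± 0.36 (SE), and the level in the remainder was 85.6, 127 and 98.6 times the untreated level (6.70 ± 0.34). In the difference, Saa3 alone took 0.231%, 0.382% and 0.371% of all counts in the 3 mice.

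Saa1 and Saa2, the liver-type serum amyloids, stayed at or below the 3-count limit in every library. Saa1 had 1, 0 and 2 counts in the difference, 0, 1 and 0 counts in the remainder and 0 counts in the 6 other libraries. Saa2 had 0 counts in all 12 libraries, which allows up to 0.172 to 0.225 CPM per library. Their close relative Saa4 did not exceed 1 count in any library. Saa3 was therefore the only serum amyloid gene of the cluster detected above that limit, with the reservation that reads shared by Saa1 and Saa2 may be missing from both.

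Lcn2, the siderophore binder, had 94, 89 and 81 counts in untreated cells, 109, 101 and 135 in IL4, 1052, 708 and 570 in the difference, and 333, 246 and 198 in the remainder. In CPM its levels were 5.05, 5.72 and 5.08, then 6.53, 6.45 and 9.73, then 60.2, 43.2 and 41.4, and last 20.7, 15.1 and 13.0. The Lcn2 group means rose in the order untreated, IL4, remainder, difference. Relative to the untreated cells of the same mouse, the difference was at 11.9, 7.55 and 8.16 times and the remainder at 4.09, 2.64 and 2.56 times, with fitted log2 fold changes of 3.19 ± 0.21 and 1.62 ± 0.21 (SE). Mouse 1 had the highest Lcn2 of the 3 mice in both parts, whereas its Saa3 was the lowest of the 3 in the difference.

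Hp, the hemoglobin scavenger, had 58, 56 and 38 counts in untreated cells, 42, 36 and 34 in IL4, 1557, 2306 and 1657 in the difference, and 672, 1009 and 638 in the remainder. Its CPM were 3.11, 3.60 and 2.38 in untreated cells and 2.52, 2.30 and 2.45 in IL4, which overlapped. They were 89.0, 140.7 and 120.4 in the difference and 41.7, 62.0 and 41.9 in the remainder, so that mouse 2 was highest in both, as it was for Saa3. The difference stood at 28.6, 39.1 and 50.5 times the untreated level and the remainder at 13.4, 17.2 and 17.6 times, with fitted log2 fold changes of 5.26 ± 0.22 and 3.997 ± 0.22 (SE).

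Slpi, the serine protease inhibitor, had 109, 95 and 100 counts in untreated cells, 64, 64 and 79 in IL4, 358, 477 and 597 in the difference, and 165, 194 and 220 in the remainder. Its CPM were 5.85, 6.11 and 6.27 in untreated cells, 3.83, 4.09 and 5.70 in IL4, 20.5, 29.1 and 43.4 in the difference, and 10.2, 11.9 and 14.4 in the remainder. The mean of IL4 was the lowest of the 4 groups. Against untreated cells of the same mouse the difference stood at 3.497, 4.77 and 6.92 times and the remainder at 1.75, 1.95 and 2.30 times, with fitted log2 fold changes of 2.35 ± 0.24 and 1.00 ± 0.24 (SE). Ptx3, the pentraxin, was not detected above the limit: it had 1, 2 and 0 difference counts, 2, 1 and 0 remainder counts and 0 in the 6 other libraries.

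**Figure D1:**
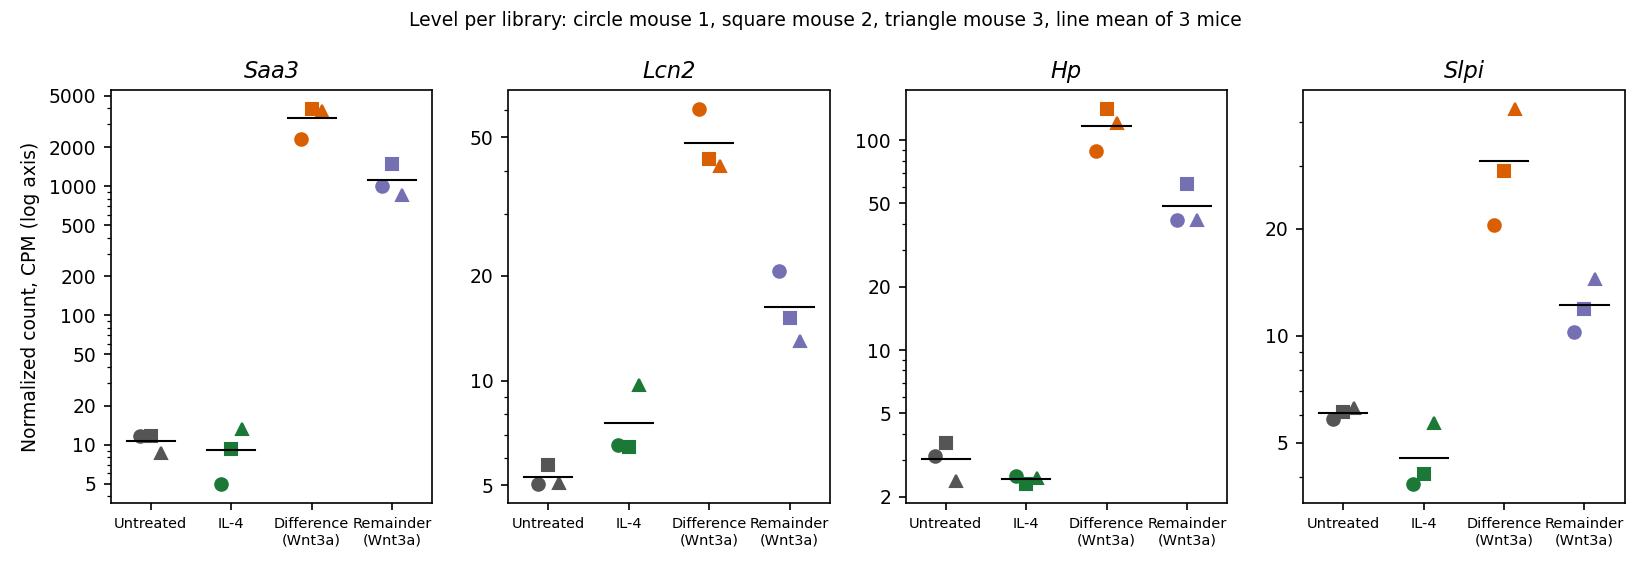
Normalized counts (CPM, log axis, separate range in each panel) of Saa3, Lcn2, Hp and Slpi in untreated, IL4, difference and remainder libraries, with 1 symbol per mouse and a line at the mean of 3 mice. In each panel all 6 Wnt3a-treated values lie above the 6 others, and the 3 difference values lie above the 3 remainder values (for Saa3, 2309 to 3929 against 853 to 1474 CPM). The genes were chosen with such values known, so this is a description.

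Levels were also taken per kilobase of exon, with the exons of all annotated transcripts of a gene joined (2623 bases for Lcn2, 1180 for Slpi). Such a length can exceed that of the transcripts made, so the order between genes is approximate. By CPM alone, Lcn2 (48.3) stood above Slpi (31.0) in the difference. The untreated means were 5.15 CPM per kb for Slpi, 4.08 for Saa3, 2.01 for Lcn2 and 1.89 for Hp. In the difference the means per kb were 1287 for Saa3, 72.7 for Hp, 26.3 for Slpi and 18.4 for Lcn2. In the remainder they were 425 for Saa3, 30.2 for Hp, 10.3 for Slpi and 6.20 for Lcn2, the same order, although Slpi and Lcn2 overlapped between mice in the difference. Ranked by that measure among all genes, Saa3 moved from 6578 in untreated cells to 25 in the difference and 77 for the remainder, and Hp from 8555 to 541 and 1552. Lcn2 and Slpi ranked 2443 and 1735 in the difference. Lcn2 and Hp were neighbors in untreated cells, where their means per kb differed by less than the spread of Hp across mice.

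The 4 detected genes had at least 10 counts in every library, so none passed the filter on low counts only through the Wnt3a-treated groups. In the difference against untreated cells, 11.8% of the 12421 genes tested were called higher and 11.4% lower, and in the remainder against untreated cells 13.6% were called higher and 11.7% lower, calls being an adjusted p under 0.05 in edgeR's quasi-likelihood test. Both comparisons use the same untreated libraries, and because they chose the 7 genes, nothing is read from these shares about them. The median log2 fold change of all genes was -0.01 for the difference against untreated cells and -0.02 for the remainder, and became -0.10 and -0.13 when scaled by total counts alone. That scaling moved the share of higher genes among those called from 50.7% to 33.7% in the difference, from 53.8% to 35.6% in the remainder and from 68.0% to 53.8% in IL4. All fitted changes of Saa3, Lcn2, Hp and Slpi over untreated cells kept their direction under each scaling.

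The 2 sets of Wnt3a-treated libraries were then compared with each other. All 4 detected genes were lower in the remainder than in the difference, in 3 of 3 mice each. All 4 were also called lower, while 2.38% of all tested genes were called lower and 2.87% higher in this comparison. High values in the difference helped to choose the genes, so nothing is read from those percentages or from the agreement of the mice. The Saa3 level in the remainder was 43.2%, 37.5% and 22.3% of that in the difference for mice 1, 2 and 3. The corresponding shares were 34.3%, 35.0% and 31.4% for Lcn2, 46.8%, 44.0% and 34.8% for Hp, and 50.01%, 40.9% and 33.3% for Slpi. Mouse 3 gave the lowest share for each of the 4 genes, and the shares of Lcn2 varied least between mice.

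The log2 fold change of the remainder over the difference was -1.60 ± 0.26 (SE) for Saa3, with an adjusted p of 0.0025 in edgeR's quasi-likelihood test. For Lcn2 it was -1.57 ± 0.19 (edgeR adjusted p = 0.00021), for Hp -1.27 ± 0.17 (edgeR adjusted p = 0.00055) and for Slpi -1.34 ± 0.23 (edgeR adjusted p = 0.0029). The median over these 4 genes was -1.46, and that over all tested genes was 0.01. Without mouse 3, Lcn2 and Slpi were still called, whereas Saa3 stood at -1.34 (edgeR adjusted p = 0.12) and Hp at -1.15 (edgeR adjusted p = 0.085). High values in the difference helped to choose these genes, so the 4 calls are not independent of the choice. In bulk RNA, fewer cells making a transcript and less transcript per cell cannot be told apart. The p-values rest on a spread between mice that was estimated over the 4 groups together and shared in part across genes. The pairing of the 2 parts within a mouse was not used.

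**Figure D2:**
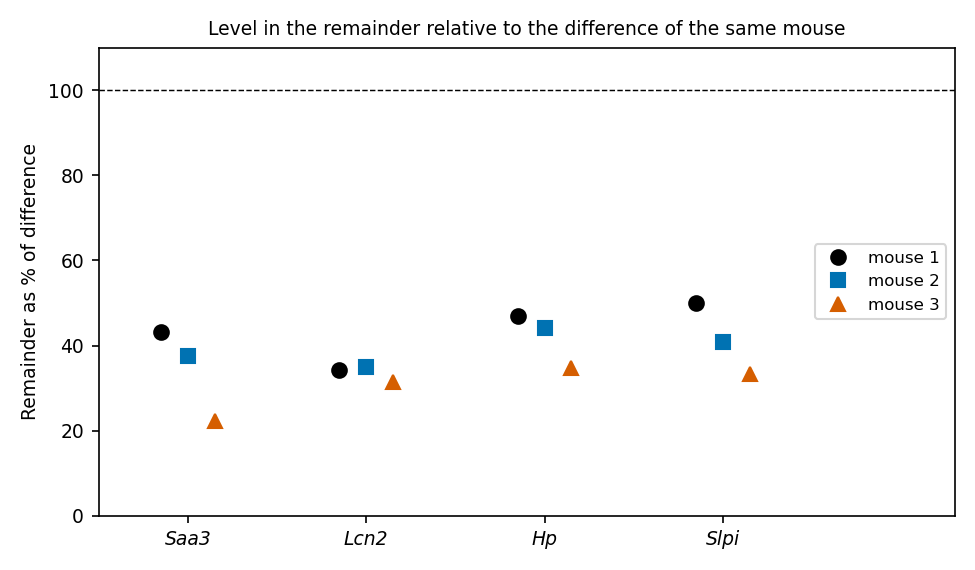
Level in the remainder as a percentage of the level in the difference of the same mouse, for Saa3, Lcn2, Hp and Slpi, with 1 symbol per mouse and a dashed line at equal levels (100%). Every point lies at or below 50.01%, and mouse 3 is lowest for each gene.

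IL4 alone moved none of the 4 genes past the threshold. At an unadjusted p under 0.05 edgeR called 1 of them, Lcn2, and DESeq2 called 0 after adjustment, while 2.31% of all tested genes were called higher and 1.09% lower. Lcn2 stood higher than in untreated cells in 3 of 3 mice, at 1.29, 1.13 and 1.92 times, with a log2 fold change of 0.51 ± 0.22 (SE, edgeR adjusted p = 0.30). Such agreement of the mice was not counted over all genes, so nothing is read from it here or for Slpi. Slpi stood lower in 3 of 3 mice, at 0.655, 0.669 and 0.909 times, with a log2 fold change of -0.43 ± 0.26 (edgeR adjusted p = 0.52). Hp was at 0.807, 0.639 and 1.03 times and -0.32 ± 0.28 (edgeR adjusted p = 0.68).

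Saa3 varied more between the IL4 libraries than between the untreated ones. IL4 was at 0.426, 0.790 and 1.53 times the untreated level in mice 1, 2 and 3, so that the mice differed in direction, and the fitted log2 fold change was -0.24 ± 0.33 (SE, edgeR adjusted p = 0.83). Without mouse 1 it turned to 0.15 (edgeR adjusted p = 0.88). For all 4 genes the log2 fold changes with IL4 alone lay within 0.51 of 0, whereas those of the Wnt3a-treated parts were 1.00 or more.

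**Figure D3:**
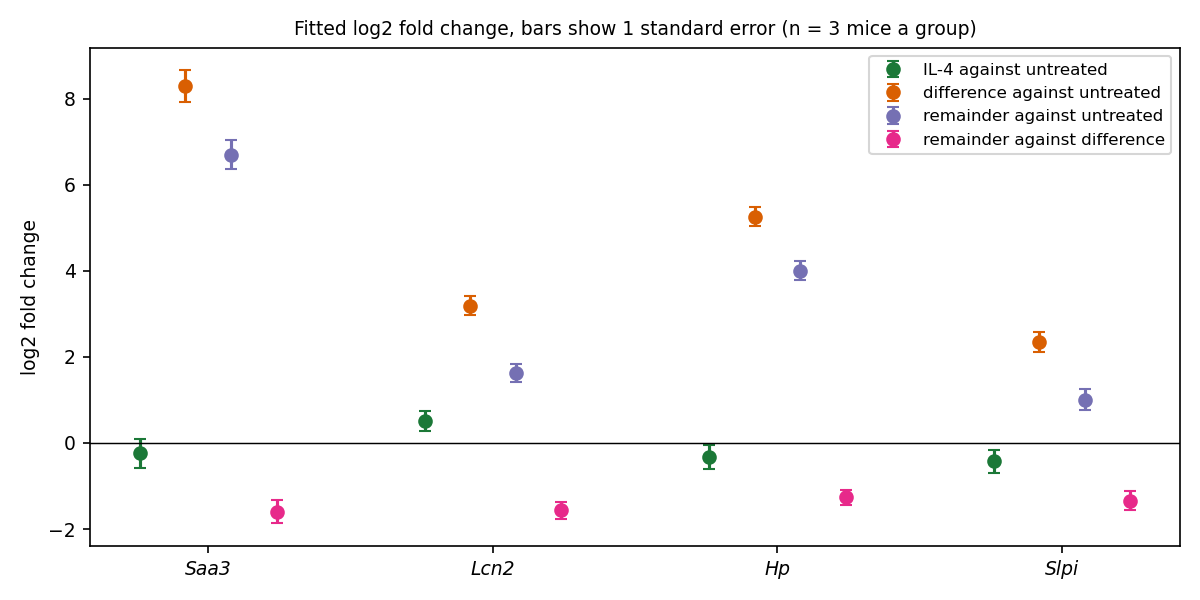
Fitted log2 fold changes (points) with 1 standard error (bars, n = 3 mice per group) of Saa3, Lcn2, Hp and Slpi in 4 comparisons. The IL4 points lie between -0.43 and 0.51, the points of both Wnt3a-treated parts against untreated cells between 1.00 and 8.30, and the remainder-against-difference points between -1.60 and -1.27.

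Whether the effect of IL4 differs with Wnt3a was tested under both assignments. Both tests contain the comparison of the 2 parts, with opposite signs. High values in the difference helped to choose these genes, so calls under either assignment are not independent of the choice. With the first (the remainder as Wnt3a with IL4), the interaction is the remainder-to-difference change less the change from untreated to IL4. It was -2.08 ± 0.29 (SE) for Lcn2 on the log2 scale (edgeR adjusted p = 0.017), since Lcn2 stood higher with IL4 in untreated cells and lower in the remainder, and it was called in 1 of the 4 genes. Saa3 (-1.36 ± 0.42, edgeR adjusted p = 0.22), Hp (-0.94 ± 0.33, edgeR adjusted p = 0.27) and Slpi (-0.91 ± 0.35, edgeR adjusted p = 0.30) were not called, and 0.105% of all tested genes were. Without mouse 3 the Lcn2 value was -1.78 (edgeR adjusted p = 0.70), so the call rests on that mouse.

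With the other assignment (the difference as Wnt3a with IL4), the interaction was positive for all 4 genes and called in each, against 7.33% of all tested genes. The high difference that helped to choose the genes enters here with a positive sign, so nothing is read from that share. It was 1.84 ± 0.42 (SE) for Saa3 (edgeR adjusted p = 0.015), 1.77 ± 0.35 for Slpi (edgeR adjusted p = 0.0052), 1.59 ± 0.33 for Hp (edgeR adjusted p = 0.0079) and 1.06 ± 0.29 for Lcn2 (edgeR adjusted p = 0.043). With mouse as a block the Lcn2 value of 1.05 was no longer called (edgeR adjusted p = 0.054), and it was not called without mouse 1 (1.00, edgeR adjusted p = 0.059), mouse 2 (0.92, edgeR adjusted p = 0.12) or mouse 3 (1.27, edgeR adjusted p = 0.097). Without mouse 3, Saa3 (2.07, edgeR adjusted p = 0.070) and Hp (1.64, edgeR adjusted p = 0.11) were not called either. The sign of the interaction is thus set by the assignment, which the labels leave unsettled. Of the 10 genes in the pathway lists below called with IL4 alone, all but Osm kept their sign in the remainder against the difference. Osm stood there at 0.34 and was not called. Those lists were chosen with earlier results of these data known, and the signs were not counted over all genes called with IL4. Nothing is therefore read from these signs about the assignment. Retnla, raised with IL4 alone, was unchanged in the remainder against the difference, and the assignment itself was not tested.

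Other acute-phase proteins were read from a list of 28 genes, of which 11 had enough counts to test. In the difference 7 of the 11 rose over untreated cells and 0 fell, with a median log2 fold change of 1.48, against 11.8% and 11.4% of all tested genes. Of those that rose, Cfb, Orm1 and Orm2 passed the filter on low counts only through the Wnt3a-treated libraries, so their rise was fixed by the filter. The list was also chosen with earlier results of these data known, so nothing is read from its counts against these shares. In the remainder 6 rose and 2 fell (median 2.10, all tested genes 13.6% and 11.7%), and in IL4 1 rose and 1 fell (median -0.07, all tested genes 2.31% and 1.09%). Complement factor B, Cfb, which starts the alternative pathway, had an untreated mean of 0.0537 ± 0.0930 CPM (SD over the 3 mice), against 19.1 ± 4.57 CPM in the difference and 11.8 ± 3.71 CPM in the remainder. The plasma glycoprotein Orm1 went from 0.156 ± 0.0508 CPM to 8.27 ± 2.72 and 9.18 ± 1.90 CPM. The fitted log2 fold changes of Cfb (8.14 and 7.46) and Orm1 (5.63 and 5.78) were called, but rest on untreated levels below the 3-count limit and are not bounds.

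Unlike Saa3 and Hp, several of these proteins were not lower in the remainder than in the difference. C3, the central complement component, stood at 568 ± 108 CPM (SD, n = 3 mice) in untreated cells, 1089 ± 168 CPM in IL4, 3832 ± 468 CPM in the difference and 6191 ± 243 CPM in the remainder. It rose with IL4 (log2 fold change 0.94, edgeR adjusted p = 0.0012) and rose in the remainder over the difference (0.69, edgeR adjusted p = 0.0096). Il1rn, the IL-1 receptor antagonist, also rose in the remainder over the difference (0.72, edgeR adjusted p = 0.015). Cd14, a lipopolysaccharide co-receptor, fell there (-0.57, edgeR adjusted p = 0.00058) and with IL4 (-0.51), but rose in the difference over untreated cells (0.78). The list as a whole had 2 higher and 1 lower in the remainder against the difference (all tested genes 2.87% and 2.38%), with a median of 0.15 against -1.46 for Saa3, Lcn2, Hp and Slpi. The metal-binding Mt2 and Mt1 fell in the remainder against untreated cells (-0.98 and -0.34). The other 17 genes, among them the liver products Crp, Apcs, Hpx and the fibrinogen chains, did not exceed 7 counts in any library.

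Of 19 cytokines and receptors known to induce acute-phase genes, 12 were tested. In the difference 4 rose and 4 fell (all tested genes 11.8% and 11.4%), in the remainder 4 rose and 3 fell (13.6% and 11.7%), and in IL4 1 rose and 1 fell (2.31% and 1.09%). Il1b stood at 21.1 ± 3.48 CPM (SD, n = 3 mice) in untreated cells, 17.3 ± 6.55 in IL4, 208 ± 34.4 in the difference and 70.4 ± 34.1 in the remainder. Like the 4 detected acute-phase genes, it was lower in the remainder than in the difference (log2 fold change -1.56, edgeR adjusted p = 0.0046), and it was the only gene of its list called there. Against untreated cells, Il1a (3.48 in the difference, 3.14 in the remainder) and Il1r1, the IL-1 receptor (2.45 and 1.78), rose in both parts, and Tnf fell in both (-1.46 and -1.74). Il1a passed the filter on low counts only through the Wnt3a-treated libraries, so its rise was fixed by the filter. Il6 did not exceed 3 counts in any library, while the IL-6 receptor gene Il6ra fell in both parts (-0.37 and -0.47) and its partner Il6st rose with IL4 (0.58) and fell in the difference (-0.33). Osm, an IL-6 family cytokine, fell with IL4 (-0.59) and in the difference (-0.42).

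Of 20 transcription factors and feedback regulators, 17 were tested, and 5 rose and 4 fell in each Wnt3a-treated part against untreated cells, where 11.8% and 11.4% (difference) and 13.6% and 11.7% (remainder) of all tested genes did. Socs3, an inhibitor of STAT3 signaling, rose in both (1.88 and 1.61, the difference first), and Bcl3, an atypical IκB protein, rose too (0.79 and 0.63). Cebpa (-1.03 and -0.71) and Tcf7l2 (-1.32 and -1.17) fell in both parts. Cebpd, the C/EBP factor of acute-phase induction, stood at 59.1 ± 4.53 CPM (SD, n = 3 mice) in untreated cells, 32.3 ± 2.58 in IL4, 58.4 ± 1.35 in the difference and 26.1 ± 4.16 in the remainder. It fell with IL4 (-0.87, edgeR adjusted p = 0.00035) and was lower in the remainder than in the difference (-1.16, edgeR adjusted p = 3.4e-05). Nfkbiz, a nuclear IκB protein, had the lower remainder too (-1.11, edgeR adjusted p = 0.0015), but fell below untreated cells in both parts (-0.97 and -2.07). Ctnnb1, which encodes β-catenin, rose with IL4 (0.44), was higher in the remainder than in the difference (0.39), and rose in the remainder against untreated cells (0.62). Zc3h12a was higher in the remainder than in the difference (0.34), where it fell below untreated cells (-0.44).

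Of 19 receptors and binding partners of the acute-phase proteins, 18 were tested. In the difference 3 rose and 6 fell (all tested genes 11.8% and 11.4%), in the remainder 0 rose and 5 fell (13.6% and 11.7%), and in IL4 1 rose and 3 fell (2.31% and 1.09%). Fpr2, a formyl peptide receptor that binds serum amyloid A, rose in the difference (log2 fold change 1.54, edgeR adjusted p = 0.00012), fell with IL4 (-1.25, edgeR adjusted p = 0.0096) and was lower in the remainder than in the difference (-1.30). Its relative Fpr1 fell with IL4 (-1.57) and in the remainder against untreated cells (-1.48), and was lower in the remainder than in the difference (-1.59). Cd36, a scavenger receptor, rose with IL4 (1.28), fell in the difference (-0.83) and was higher in the remainder than in the difference (0.70), where its value against untreated cells was -0.13 and not called. Tlr2, a receptor for bacterial lipoproteins, rose in the difference (0.42) but fell in the remainder (-0.38) and with IL4 (-0.71), and was lower in the remainder than in the difference (-0.79).

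Cd163, the receptor that clears haptoglobin bound to hemoglobin, stood lower than in untreated cells in both Wnt3a-treated parts, where Hp stood higher. It was at 9.86 ± 2.39 CPM (SD, n = 3 mice) in untreated cells, 10.8 ± 0.955 CPM in IL4, 2.14 ± 0.559 CPM in the difference and 1.09 ± 0.0766 CPM in the remainder. Its log2 fold changes over untreated cells were -2.21 in the difference and -3.17 in the remainder (edgeR adjusted p = 5.1e-06 and 3.2e-07). Between the parts its value was -0.96 in the remainder against the difference (edgeR adjusted p = 0.061), the same sign as for Hp. Lrp2, a receptor for Lcn2, did not exceed 2 counts in any library.

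Over the 4 pathway lists together, 58 of 86 genes were tested. In the difference 19 rose and 14 fell, while 11.8% and 11.4% of all tested genes did. The genes that rose include Cfb, Orm1, Orm2 and Il1a, which passed the filter only through the Wnt3a-treated libraries. In the remainder 15 rose and 14 fell (all tested genes 13.6% and 11.7%), and with IL4 4 rose and 6 fell (2.31% and 1.09%). Against the difference, 5 were higher and 8 lower in the remainder (2.87% and 2.38%), with a median of -0.08.

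**Figure D4:**
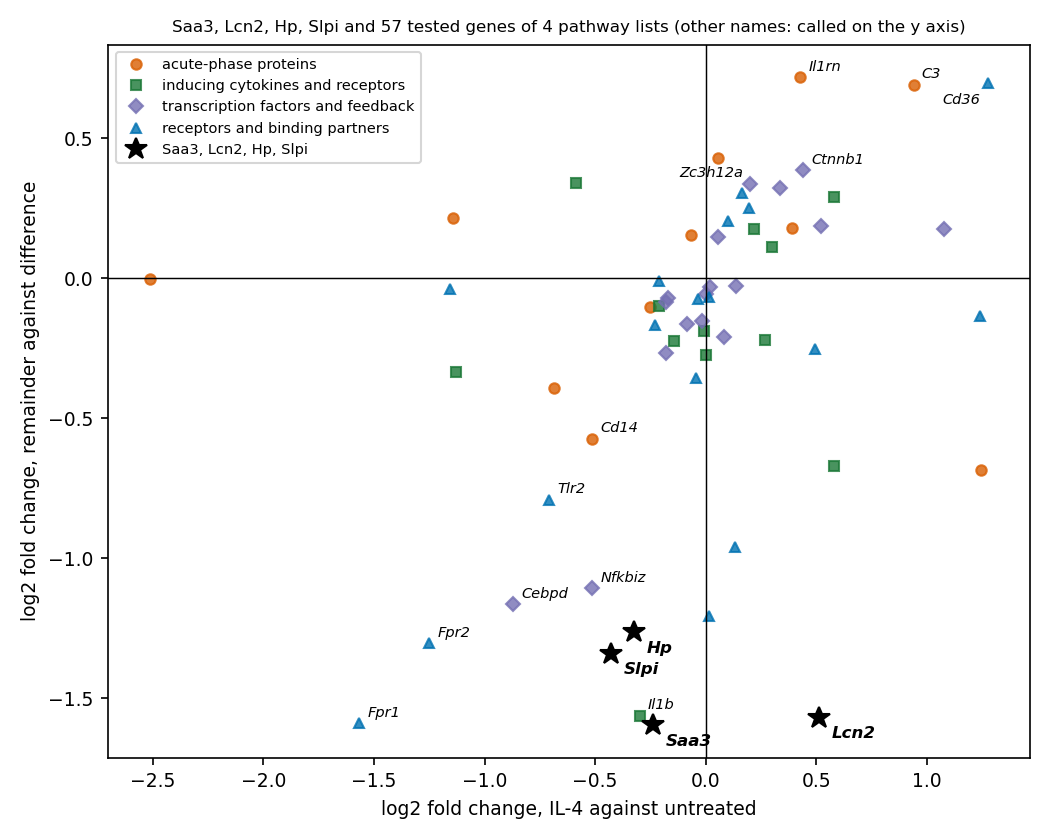
Log2 fold change of IL4 against untreated cells (horizontal axis) and of the remainder against the difference (vertical axis) for Saa3, Lcn2, Hp and Slpi (stars) and 57 of the 58 tested genes of 4 pathway lists (other symbols, named where called on the vertical axis). The 4 stars lie between -1.60 and -1.27 on the vertical axis, where Il1b (-1.56), Fpr1 (-1.59) and Fpr2 (-1.30) also lie, while C3 (0.69), Il1rn (0.72) and Cd36 (0.70) lie on the opposite side.

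Neutrophils make Lcn2, Hp and Slpi and are present in whole bone marrow, so markers of other cell types were read beside the results. Of 15 neutrophil markers, the summed level was 248 to 298 CPM in untreated cells, 251 to 300 in IL4, 327 to 349 in the difference and 327 to 344 in the remainder. Most of it was Csf3r and Mmp8, and Mmp8 rose from 19.8 CPM to 87.7 in the difference (log2 fold change 2.14) and 51.6 in the remainder (1.37). Some of these markers were near absent: Ly6g did not exceed 3 counts, Elane stayed at or below 12 and Retnlg at or below 10. Ly6g was at 0 in untreated cells. Others were present in untreated cells, with S100a9 at 18.7 CPM, Ltf at 11.5 CPM and S100a8 at 9.99 CPM, and Ngp reached 315 counts. Prtn3 was called higher in the difference (log2 fold change 1.86, edgeR adjusted p = 0.042), at 0.736 CPM against 0.205 CPM in untreated cells. Prtn3 passed the filter on low counts only through the Wnt3a-treated libraries. Its rise, which is among those counted below, was therefore fixed by the filter. Ngp (-0.55 and -0.90) and Ltf in the remainder (-1.02) fell. Of the 10 tested, 2 rose and 2 fell in the difference (all tested genes 11.8% and 11.4%) and 2 rose and 5 fell in the remainder (13.6% and 11.7%). In edgeR's fit 0 were called with IL4 (1 at an unadjusted p under 0.05, 1 in DESeq2) and 0 in the remainder against the difference (3 at an unadjusted p under 0.05, 1 in DESeq2). Of all tested genes, 2.31% were called higher and 1.09% lower with IL4, and 2.87% and 2.38% in the remainder against the difference. Between the 2 parts, Csf3r stood at 198 CPM in the difference and 240 CPM in the remainder, opposite in direction to Mmp8, and the median log2 fold change of the 10 markers was -0.28.

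Of 10 stromal markers, 4 were tested, and their sum was 8.70 to 20.6 CPM in untreated cells, 10.4 to 30.8 in IL4, 5.88 to 12.02 in the difference and 7.00 to 17.1 in the remainder, with Pdgfra at or below 2 counts. In the difference 1 rose (Pdgfrb, 1.00) and 1 fell (all tested genes 11.8% and 11.4%), and in the remainder 0 rose and 1 fell (13.6% and 11.7%). In edgeR's fit 0 stromal markers were called with IL4 (1 at an unadjusted p under 0.05, 0 in DESeq2) and 0 in the remainder against the difference (0 at an unadjusted p under 0.05, 0 in DESeq2). The shares of all tested genes there were 2.31% and 1.09% with IL4, and 2.87% and 2.38% between the parts. The 10 macrophage markers summed to 51660 to 58857 CPM in untreated cells, 44546 to 52836 in IL4, 58236 to 68557 in the difference and 57641 to 58059 in the remainder. Most of each sum was Lyz2, which alone had a mean of 45327 CPM in untreated cells. In the difference 3 rose and 1 fell (all tested genes 11.8% and 11.4%), among the former Fcgr1 (1.07) and Itgam (1.07). In the remainder 2 rose and 1 fell (Cx3cr1, -1.68), against 13.6% and 11.7% of all tested genes. In the remainder against the difference 1 was higher and 2 lower (Cx3cr1, -1.44, and Fcgr1, -0.47), against 2.87% and 2.38% of all tested genes. With IL4 0 rose and Cx3cr1 fell (-1.14), against 2.31% and 1.09%. The part of any of these cells in the levels of the acute-phase genes was not tested.

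The patterns of the genes were last compared over the 12 libraries by Pearson's r of log2 CPM, among 9613 genes, as a description over the libraries of all 4 groups. The 5 genes most like Saa3 were Hp (r = 0.995), Ly6i (0.993), Ak4 (0.990), Mmp14 (0.989) and Cfb (0.989). Slpi followed at 0.923 (rank 248) and Lcn2 at 0.912 (rank 289). The 5 most like Lcn2 were Vcan (0.964), Btg1 (0.961), Bst1 (0.954), Ctsc (0.952) and Sgms2 (0.950), while Hp (0.914), Saa3 (0.912) and Slpi (0.894) ranked 39, 49 and 77. The genes compared had to reach 5 CPM in their highest group, which Hp and Cfb did only in the Wnt3a-treated parts. Saa3 and its relatives were chosen with their Wnt3a-treated levels in view, and those levels also shape r. Nothing is therefore read from the r between them. Because the 12 values come from 3 mice and share library-wide properties, no p is given.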

How the data were processed

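RNA from the BMDMs of 3 mice was sequenced as single reads. The authors deposited a table of raw counts per gene (48526 Ensembl IDs, 0 unmatched columns, 0 rows without a gene), made, per the labels and the study's methods, with Trimmomatic 0.36, STAR 2.6.0 on mm10 and HTSeq 0.11.1, and compared groups with DESeq2 1.24.0. The strand setting is not given in the sources used here. The depths, 13342492 to 17453377 counts per library, set a limit of 3 counts.

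Symbols (48058 IDs matched) came from a gene name table, and gene positions and exon lengths from GENCODE on mm10. The members and the gene lists were chosen with earlier results of these data known. The 12 libraries (untreated, IL4, difference and remainder of 3 mice) were fitted together in edgeR 4.0.16 (R 4.3.3), with quasi-likelihood tests, TMM scaling, 12421 genes (10 or more counts in 3 or more libraries), no block, and Benjamini-Hochberg adjustment over all of them with a threshold of 0.05. SE is the absolute log2 fold change over the square root of F. On simulated counts of 12238 genes for IL-4 against untreated, 197 of 200 changed genes were recovered with 9 false calls, and the comparison of the 2 parts, left unchanged, gave 0 calls. The simulation gave all genes the same spread and no effect of the mouse, and changed only genes above a count limit. It therefore checks the code and does not measure recovery in the real counts. Same-numbered samples come from 1 mouse per the labels, and deviations from group means correlated between -0.417 and 0.454 over 18 pairs of same-mouse samples (6 over 0.1). Alternatives were DESeq2 1.42.0, its size factors, total counts, other filters and thresholds, mouse as block, only the groups compared, the deposited columns in place of the parts, and leaving out each mouse. Named were, besides the 7 genes, the 2 highest and 2 lowest log2 fold changes called in each list and comparison where the higher group's mean reached 2 CPM, the 5 genes with the highest r to Saa3 or Lcn2 (log2 CPM, prior count 2, at least 5 CPM in the highest group) and Axin2, Retnla and Arg1. Other genes given with values were picked after these were seen. A few listed genes are counted with their lists but are not reported here by name, and 1 is left out of a plot.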

Additional observations from a re-analysis of the deposited data

Results flagged for a closer look

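The interaction of IL4 and Wnt3a was past the threshold in edgeR's quasi-likelihood test, with each value a difference between 2 log2 fold changes. With the remainder taken as Wnt3a with IL4, it was -2.08 for Lcn2 (the remainder lower than the difference in 3 of 3 mice, and IL4 higher than untreated in 3 of 3). With the difference taken as Wnt3a with IL4, it was 1.84 for Saa3, 1.06 for Lcn2, 1.59 for Hp and 1.77 for Slpi. These genes were chosen with results of the same libraries known, the labels do not settle the assignment, and the cause was not tested.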

How the results depend on the processing

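Counts of Saa3, Lcn2, Hp and Slpi called, and of the 86 listed genes called, were recomputed under 12 alternatives. The difference and the remainder differed in 4 of the 4 genes, in 0 with the deposited columns in place of the parts, which share reads by construction, and in 2 to 4 when 1 mouse was left out. The interaction with the first assignment was called in 1 gene, in 4 with all genes of at least 1 count, in 0 at an adjusted p under 0.01, in 0 with the deposited columns and in 0 to 1 without 1 mouse. With the other assignment it was called in 4, in 2 at an adjusted p under 0.01, in 0 with the deposited columns and in 1 to 3 without 1 mouse. With IL4, 10 listed genes were called, 17 with all genes of at least 1 count and 4 to 8 without 1 mouse, 4 being without mouse 3. Between the parts 13 listed genes were called, 8 at an adjusted p under 0.01, 0 with the deposited columns and 2 to 15 without 1 mouse, 2 being without mouse 3. The cause was not tested where none is named.

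Directions turned for Saa3 with IL4, which ranged from -0.734 to 0.149 when 1 mouse was left out and was above 0 without mouse 1, and with the deposited columns for the interaction with the first assignment in Saa3 (0.0199), Hp (0.141) and Slpi (0.236) and with the other assignment in Lcn2 (-0.282). The deposited columns also gave log2 fold changes over untreated cells of 2.82 for Lcn2 in the Wnt3a column, and of 7.68 for Saa3, 2.598 for Lcn2, 4.75 for Hp and 1.80 for Slpi in the combined column.

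With mouse as a replicate block, the interaction with the other assignment was called in 3 of the 4 genes, Lcn2 (1.05, edgeR adjusted p = 0.054) being lost, and the counts of calls for the other comparisons of the 4 genes were 0, 4 and 1 as without it. Of the log2 fold changes of the 4 genes under the alternatives, 239 kept their direction and, in the comparisons that were tested, their side of the threshold (for those against untreated cells in the Wnt3a-treated parts, which have no test, they moved by less than 1 SD between mice), as did 738 of the listed genes, while 20 and 87 lost the threshold. Saa1, Saa2 and Ptx3, at or below 3 counts in every library, have no comparison.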
